A study of Homo sapiens with 2 samples.

Results

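The respiratory chain and ATP synthase genes were followed here in a human breast cancer cell line. Members were the protein-coding genes of the count tables whose symbol starts with NDUFA, NDUFB, NDUFC, NDUFS, NDUFV, UQCR, ATP5, COX4I, COX5, COX6, COX7 or COX8, the genes SDHA, SDHB, SDHC, SDHD and CYC1, and the 13 protein-coding genes of the mitochondrial genome. This gave 112 of 57820 genes, of which 13 were mitochondrially and 99 nuclear encoded. Complex I held 53 of them, complex II 4, complex III 11, complex IV 22 and complex V 22. The choice used names alone and no measured value.

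The respiratory chain passes electrons from NADH (complex I) and succinate (complex II) through complex III and cytochrome c to oxygen at complex IV. Complexes I, III and IV pump protons out of the mitochondrial matrix, and complex V, the ATP synthase, lets them flow back and makes ATP. The mitochondrial genome encodes a few hydrophobic core subunits and all other subunits come from nuclear genes, so every complex but complex II is built from the products of both genomes. Mitochondrial genes are transcribed as long transcripts from both strands and then cut, mostly at tRNAs, so neighbouring genes share a precursor while the levels of their mature mRNAs can differ.

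Total RNA came from T47D cells, an established line of luminal, estrogen receptor-positive human breast carcinoma. The cells carried the ESR1 mutation Y537S, which keeps estrogen receptor alpha active without hormone, were held in medium stripped of hormones and received control siRNA at 25 nM. The names of the count columns give the line, the receptor residue and the replicate number but not the siRNA, so the siRNA treatment rests on the sample labels. By the labels there was a single group with 2 libraries of ribosomal RNA-depleted RNA, so no condition was compared with another and all values describe this control state. Cells without the mutation were not analysed here, and it is not stated whether the libraries came from separate cultures or whether the mutant line is 1 clone.

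The libraries held 41370662 reads on genes in replicate 1 and 37198274 in replicate 2. All 9 luminal markers examined, such as KRT8, GATA3 and FOXA1, were detected, against 1 of 8 markers of other cell types. The exception was COL1A1, at 1.05 TPM in replicate 1 and 1.16 TPM in replicate 2. Levels are given in TPM, a transcript abundance that scales reads to the summed exon length of a gene and to the library, while CPM scales reads to the library alone. In bulk RNA a low level in every cell and a high level in few cells cannot be told apart.

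The genes of the mitochondrial genome lie close together and 2 neighbouring pairs overlap, which bears on how their reads could be assigned. The bases shared by each pair are in capitals, with 10 bases to either side in lower case, from the plus strand of the mitochondrial genome. The coordinates are those of GENCODE release 29, and all 13 genes stand at the same positions in the count table's annotation. The first stretch, chrM:8517-8582, holds the 46 bases in which the end of MT-ATP8 and the start of MT-ATP6 are read in different frames. The second, chrM:10750-10776, holds the 7 bases shared by MT-ND4L and MT-ND4.
MT-ATP8/MT-ATP6: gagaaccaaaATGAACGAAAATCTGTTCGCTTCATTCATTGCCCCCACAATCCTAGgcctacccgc
MT-ND4L/MT-ND4: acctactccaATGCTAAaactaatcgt

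Detection was nearly complete. At 1 CPM or more in both libraries, 102 of 112 members were detected (91.1%), beside 60.9% of the 19263 protein-coding genes. All 13 mitochondrially encoded members were detected and 89 of 99 nuclear encoded ones. The 10 others were isoforms of single subunits, readthrough genes and 1 subunit of complex I, and are described with their complexes.

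Mitochondrially encoded members stood above nuclear ones. Their median was 622 TPM in replicate 1 and 575 TPM in replicate 2, a mean of 599 ± 33.4 TPM (SD, n = 2), against 57.4 and 50.3 TPM for the nuclear members, a mean of 53.9 ± 5.04 TPM. The ratio of the medians was 10.8 in replicate 1 and 11.4 in replicate 2. All 13 mitochondrially encoded members exceeded the nuclear median, and 4 of them exceeded every nuclear member. The ranges still overlapped. On mean TPM, 23 nuclear members exceeded the lowest mitochondrially encoded one, and 2 exceeded the mitochondrial median: ATP5F1B, the catalytic beta subunit of ATP synthase, and COX8A, a small subunit of complex IV. All protein-coding genes had a median of 2.42 TPM in replicate 1 and 2.19 TPM in replicate 2, and those detected had 9.91 and 8.63 TPM.

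The size of this gap rested on gene length. The summed exons of a nuclear member were 1.73 times as long as its principal transcript at the median, while the mitochondrially encoded genes had a ratio of 1. With the length of the principal transcript, an alternative chosen after seeing the data, the ratio of the medians was 5.85 in replicate 1 and 6.10 in replicate 2. In CPM, with no length, the ratio of the medians was 3.10 (mean of the libraries), so the mitochondrial lead was smaller but remained. Summed over genes, the 13 mitochondrially encoded members held 0.758% and 0.890% of the reads. The 99 nuclear members together held more, at 1.22% and 1.21%.

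**Figure D1:**
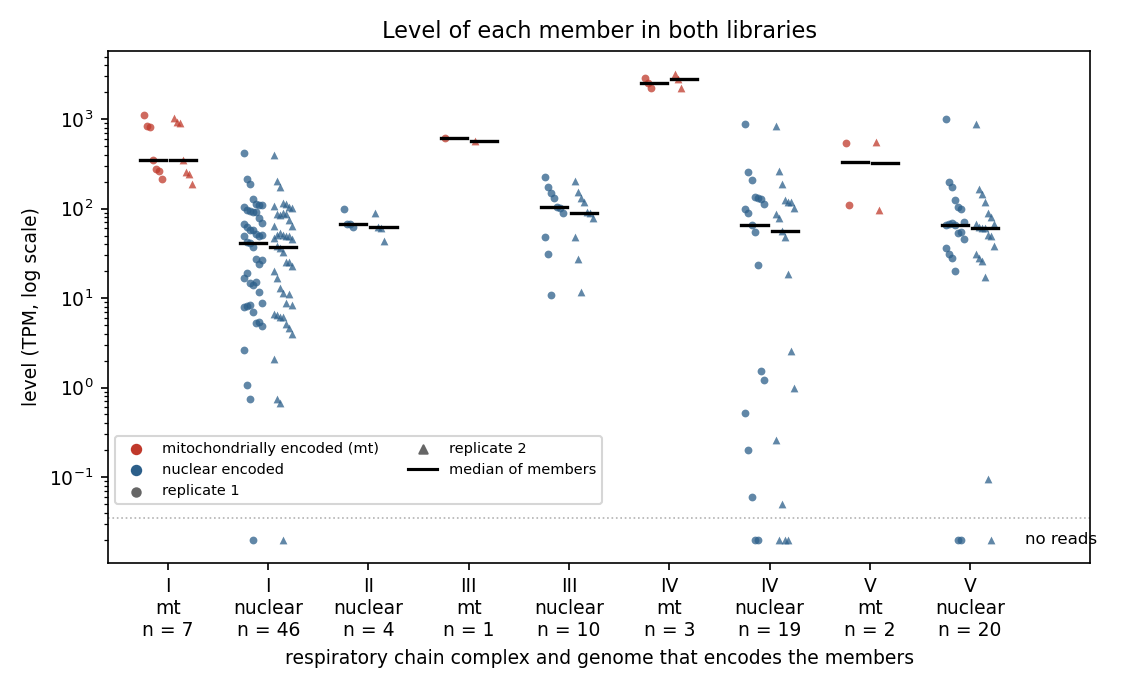
TPM (log scale) of each of the 112 members in replicate 1 (circles) and replicate 2 (triangles), by complex and encoding genome, with black bars for the median; members without reads stand below the dotted line. Mitochondrially encoded members (red, left of the nuclear ones of their complex) lie above the nuclear median of their complex in both libraries.

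The mitochondrially encoded members differed widely among themselves although they share their precursors. The 3 catalytic core subunits of complex IV were the most abundant. MT-CO2, which takes up electrons from cytochrome c, had 2901 TPM in replicate 1 and 3188 TPM in replicate 2. MT-CO1, which holds the site of oxygen reduction, had 2548 and 2839 TPM. MT-CO3 had 2214 and 2219 TPM. The ranges of these 3 genes did not overlap each other, so their order was the same in both libraries, and together they took 64.7% of the reads on mitochondrially encoded members in replicate 1 and 66.4% in replicate 2.

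The complex I genes, all membrane subunits of its proton-pumping arm, spread over a range of levels. MT-ND3 had 1097 TPM in replicate 1 and 1020 TPM in replicate 2, above MT-ND4 with 846 and 934 TPM and MT-ND4L with 815 and 915 TPM. MT-ND4 and MT-ND4L, which stay joined in 1 mature mRNA in human mitochondria, overlapped in range. MT-ND5 had 353 and 347 TPM, MT-ND1 275 and 259 TPM, and MT-ND2 263 and 245 TPM, so that MT-ND1 and MT-ND2 overlapped. MT-ND6 was lowest of the 7, at 213 TPM in replicate 1 and 186 TPM in replicate 2. Reads of either strand were counted by default, so its level can include RNA of the opposite strand. How far this raised MT-ND6 was not tested.

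MT-ND6 is the member encoded on the opposite strand, and its sequence was 35.6% G and 7.05% C, against 6.28% to 16.2% G and 29.5% to 36.0% C in the other 12. MT-CYB, the cytochrome b of complex III, had 622 TPM in replicate 1 and 575 TPM in replicate 2. MT-ATP6, the channel subunit of ATP synthase, had 544 and 550 TPM, below MT-CYB in each library. MT-ATP8, its small partner, had the lowest level of the 13, at 110 TPM in replicate 1 and 96.6 TPM in replicate 2. These mRNAs are joined in human mitochondria, yet MT-ATP6 and MT-ATP8 did not overlap in level. MT-ATP8 shares 22.2% of its length with MT-ATP6 (the first stretch above), and reads that overlap 2 genes were not counted by default. How far this lowered MT-ATP8 was not tested.

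**Figure D2:**
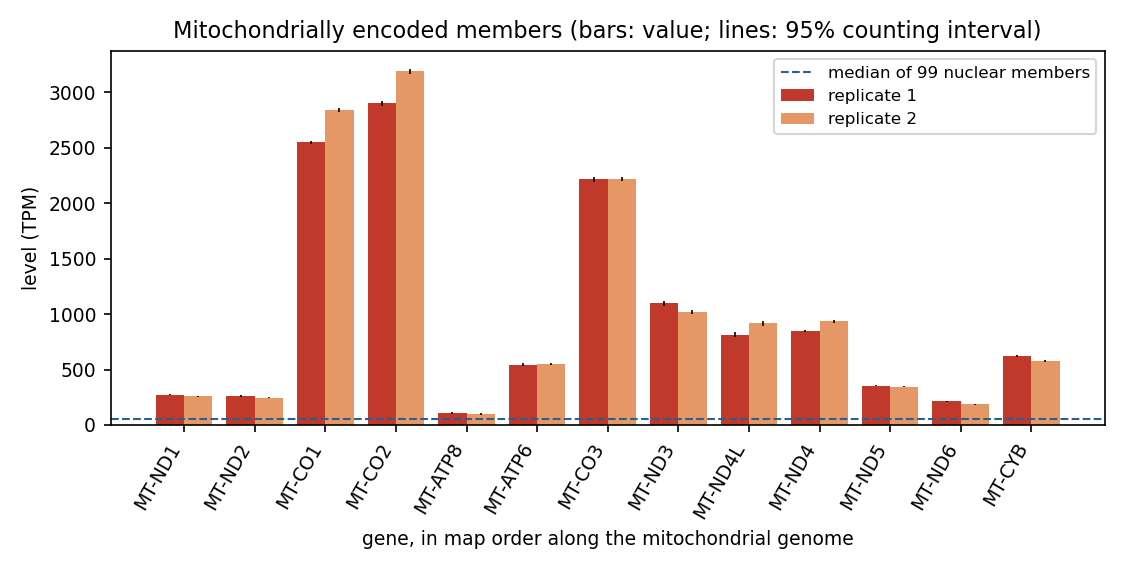
TPM of the 13 mitochondrially encoded members in map order, with 1 bar per library and lines for the 95% counting interval; the dashed line is the mean of the libraries' medians over the 99 nuclear members. MT-CO1, MT-CO2 and MT-CO3 stand at 2214 TPM or more in each library and MT-ATP8 is lowest.

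Among complexes, the mitochondrial lead was largest in complex IV, where the ratio of the medians was 39.0 in replicate 1 and 50.7 in replicate 2. It was 8.48 and 9.40 in complex I, 6.02 and 6.44 in complex III, and 4.97 and 5.29 in complex V. The medians of complexes III and V rest on 1 and 2 mitochondrially encoded genes. The complex IV ratio fell to 25.6 when members that were not detected were left out, all of them nuclear.

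Nuclear members of complex I had a median of 39.3 ± 3.34 TPM (mean of 2 library medians with SD) over 46 genes. The highest were NDUFS5, an accessory subunit on the intermembrane-space side, with 416 TPM in replicate 1 and 395 TPM in replicate 2, NDUFB7 with 212 and 205 TPM, and NDUFB11 with 186 and 174 TPM. The 7 nuclear core subunits, which carry electrons from NADH towards ubiquinone, had a median of 40.0 ± 2.94 TPM. NDUFV2 was the lowest of them at 4.43 ± 0.700 TPM. Over all complexes, the 21 nuclear core subunits and the 58 accessory subunits had like medians, at 64.6 ± 4.77 and 65.1 ± 2.66 TPM. The 8 NDUFAF genes, assembly factors that are not part of the finished complex I, were lower, at a median of 10.6 ± 1.18 TPM. All 8 were detected, with mean levels from 5.05 to 48.0 TPM.

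The lowest nuclear members of complex I were a readthrough gene and the accessory subunits NDUFA13 and NDUFA7. NDUFA13 had 0.743 TPM in replicate 1 and 0.675 TPM in replicate 2 (66 and 60 reads), and NDUFA7 had 1.08 and 0.742 TPM (45 and 31 reads), which left NDUFA7 below detection. Each shares much of its exon length with other genes. NDUFA13 shares 44.7%, with YJEFN3 on the same strand among its partners, and NDUFA7 shares 30.0%. The readthrough gene NDUFC2-KCTD14, all of whose exon bases lie in other genes, had no read in either library.

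Complex II, succinate dehydrogenase, has nuclear subunits alone, and its 4 genes lay close together by summed exon length. SDHC, a membrane anchor, had 99.4 TPM in replicate 1 and 88.7 TPM in replicate 2. SDHB, the iron-sulfur subunit, had 67.3 and 62.2 TPM, and SDHA, the flavoprotein, had 67.9 and 61.1 TPM. Copies of SDHA elsewhere in the genome also took reads, as given below. SDHD, the other anchor, had 61.9 TPM in replicate 1 and 43.3 TPM in replicate 2. SDHC was higher than the other 3 in each library by summed exon length. With the length of its principal transcript (13566 bases, against 2014 bases of summed exons in the count table) its mean was 11.7 TPM, the lowest of the 4. On that scale SDHA had a mean of 189 TPM, SDHB 116 TPM and SDHD 65.0 TPM. Both the order of the 4 genes and their closeness thus depend on the annotation.

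Nuclear members of complex III had a median of 96.4 ± 9.95 TPM. CYC1, the cytochrome c1 that hands electrons to cytochrome c, was the highest with 225 TPM in replicate 1 and 202 TPM in replicate 2. UQCRH, the hinge subunit, followed with 173 and 152 TPM and UQCR10 with 149 and 131 TPM. UQCRQ, UQCRC1, UQCRC2 and UQCRFS1, the iron-sulfur protein, lay between 83.1 and 126 TPM on average. The lowest were UQCR11 with 10.7 and 11.8 TPM, UQCRB with 30.9 and 27.6 TPM, and UQCRHL with 47.9 and 47.5 TPM. This order is by summed exon length. With principal transcript length UQCRH had a mean of 318 TPM, above CYC1 with 285 TPM. UQCRFS1, with 30.6 TPM, was then below UQCRB with 42.7 TPM. UQCRHL is a gene without introns whose coding sequence differs from that of UQCRH at 4 of 273 bases, with a longest identical run of 157 bases. Bases 108 to 167 of both coding sequences, counted from 1 at the A of the start codon and read from GENCODE release 29 transcripts, are shown because they hold 2 of the 4 differences, in capitals.
UQCRH: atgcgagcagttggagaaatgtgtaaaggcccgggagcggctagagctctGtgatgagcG
UQCRHL: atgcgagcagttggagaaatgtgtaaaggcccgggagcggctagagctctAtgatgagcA
In these libraries the ratio of UQCRH to UQCRHL was 3.62 in replicate 1 and 3.21 in replicate 2, with 95% counting intervals of 3.34 to 3.93 and 2.96 to 3.48. Reads from identical stretches cannot be placed in 1 of these genes and were not counted by default, so both levels are uncertain. The mean ratio was 9.29 in CPM and 33.5 with principal transcript length, which is 604 bases for UQCRH and 2180 for UQCRHL, against 1408 and 516 bases of summed exons.

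Complex IV, cytochrome c oxidase, holds most of the isoforms, and in 6 pairs of a common form and a form known from muscle, testis or lung the common form was far higher. A ratio was called when its counting interval lay on 1 side of equality in each library and its mean was larger than the 95th percentile of differences between the libraries for genes of like level. By this rule 12 of 12 pairs of all complexes were called. COX4I1 had 17095 and 15858 reads, against 0 and 0 for COX4I2, the lung form, which puts COX4I1 at least 824-fold higher in replicate 1 and at least 764-fold higher in replicate 2 per exon base (floor of 3 reads per library). COX6B1 had 6362 and 6447 reads, against 6 and 5 for COX6B2, the testis form, a ratio of 4322 in replicate 1 (1984 to 11781) and 5255 in replicate 2 (2251 to 16191), and in CPM, without length, a mean of 1169. COX8A had 11703 and 11185 reads, against 0 and 0 for COX8C, and was at least 4101-fold and at least 3920-fold higher by the same floor. The 95% counting intervals began lower than these floor values, at 670 and 622 for COX4I1 and at 3335 and 3187 for COX8A.

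The muscle forms were nearly absent. COX6A1 had 3958 and 3584 reads, against 4 and 0 for COX6A2, the heart and skeletal muscle form. The ratio was 559 in replicate 1 (95% interval 218 to 2052) and at least 675 in replicate 2 (floor of 3 reads, 95% interval from 548). COX7A2 had 4999 and 4381 reads, against 14 and 7 for COX7A1, the other muscle form, with ratios of 187 (111 to 342) and 328 (159 to 815). In CPM, without length, COX4I1 was at least 5488-fold above COX4I2 (floor of 3 reads), and the ratios were 473 for COX7A2 to COX7A1 and 93.6 for COX7B to COX7B2. The muscle markers MYH7, CKM and ACTA1 had at most 4 reads each in a library.

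COX7B2 differed between the libraries. It had 34 reads in replicate 1 and 57 in replicate 2, or 1.54 and 2.59 TPM, against 54.8 and 48.3 TPM for COX7B, so that the ratio of COX7B to COX7B2 was 35.5 in replicate 1 and 18.7 in replicate 2. The intervals, 25.4 to 51.3 and 14.4 to 24.7, did not overlap. COX7A2L, a relative of COX7A2 that joins complexes III and IV in supercomplexes, was detected at 23.3 TPM in replicate 1 and 18.8 TPM in replicate 2, and its ratio to COX7A2 was 0.237 and 0.219 (mean of 0.665 in CPM, since its summed exons are longer, at 5605 bases against 1922 for COX7A2). NDUFA4, named for complex I but now counted to complex IV, had 128 and 119 TPM, against 1.21 and 0.995 TPM for NDUFA4L2, a gene induced by hypoxia, with ratios of 106 and 120. The other highest nuclear members of the complex were COX8A with 871 and 832 TPM, COX6B1 with 257 and 260 TPM, and COX7C with 207 and 188 TPM. The remaining common forms lay between 51.5 TPM (COX7B) and 130 TPM (COX4I1) on average by summed exon length. The place of COX4I1 depends on this length, which is 4792 bases against 873 for its principal transcript. With principal transcript length its mean was 596 TPM, above COX6B1 with 303 TPM and COX7C with 208 TPM.

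**Figure D3:**
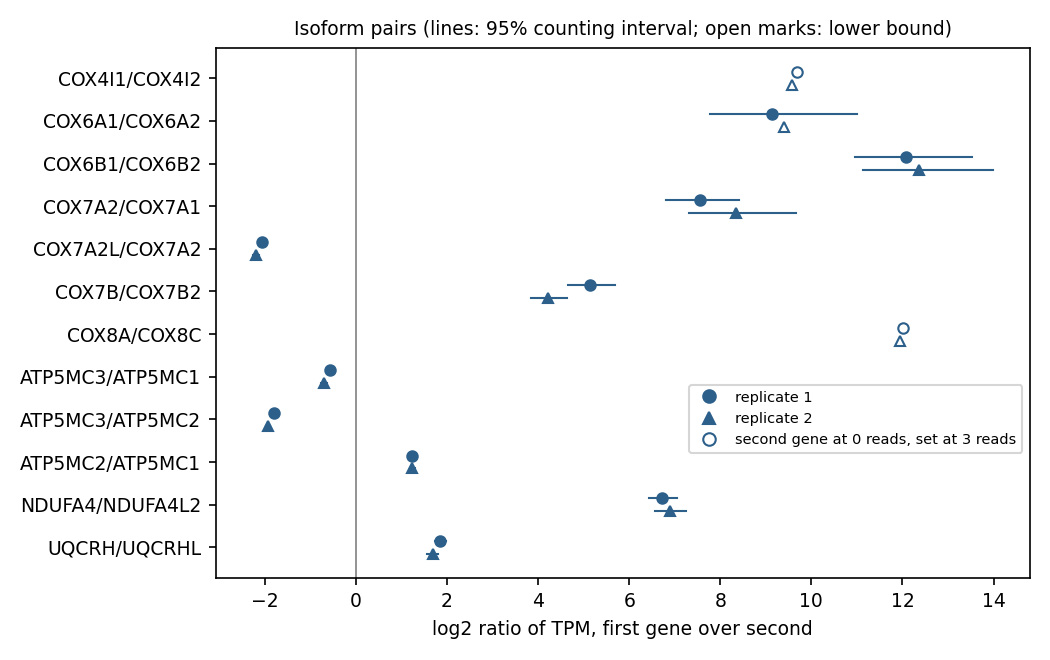
The log2 ratio of TPM (first gene over second) of 12 pairs in replicate 1 (circles) and replicate 2 (triangles), with lines for the 95% counting interval and open marks for lower bounds where the second gene had no read. In 6 of the 7 pairs named COX the first gene is the higher; COX7A2L/COX7A2 lies below 0.

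ATP synthase had a nuclear median of 63.5 ± 3.32 TPM, but its subunits of the catalytic head were not level. ATP5F1B had 1010 TPM in replicate 1 and 876 TPM in replicate 2, ATP5F1A, the alpha subunit present in the head in the same number, had 173 and 146 TPM, and ATP5F1C, the central stalk, had 198 and 166 TPM. The ratio of ATP5F1B to ATP5F1A was 5.85 in replicate 1 and 6.01 in replicate 2. With principal transcript length it was 5.99 and 6.15. ATP5F1A is the longer on both scales, with 7012 summed and 5818 principal bases, against 2268 and 1839 for ATP5F1B. In CPM, without length, ATP5F1B had 1467 in replicate 1 and 1416 in replicate 2, and ATP5F1A had 775 and 729. The gap was smaller there, so its size depends on length. ATP5F1D, another stalk subunit, was low at 20.2 and 17.3 TPM. ATP5IF1, the inhibitor of the reverse reaction, had 70.1 TPM in replicate 1 and 67.3 TPM in replicate 2. ATP5MGL, a relative of ATP5MG, had 0 reads in replicate 1 and 2 in replicate 2, and the readthrough gene ATP5MF-PTCD1 had none in either.

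The accessory nuclear subunits of ATP synthase, in its membrane part and peripheral stalk, ran from 26.8 TPM (ATP5MF) to 97.1 TPM (ATP5PB) on average.

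The c ring, the rotor of ATP synthase, is built from copies of 1 mature protein that 3 genes encode. The last 60 coding bases before the stop codon are shown for each, from GENCODE release 29 transcripts, because they give the same amino acids by different codons. Capitals mark the positions at which the 3 genes are not identical.
ATP5MC1: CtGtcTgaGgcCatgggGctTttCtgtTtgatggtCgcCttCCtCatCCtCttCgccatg
ATP5MC2: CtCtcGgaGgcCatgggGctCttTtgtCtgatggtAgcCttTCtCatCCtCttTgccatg
ATP5MC3: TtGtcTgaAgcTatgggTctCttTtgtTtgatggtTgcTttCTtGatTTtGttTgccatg
Over the last 225 bases, ATP5MC2 and ATP5MC1 differed at 25 and ATP5MC3 differed from either at 42, so reads can tell them apart. ATP5MC2 was the highest with 126 TPM in replicate 1 and 118 TPM in replicate 2, followed by ATP5MC1 with 53.3 and 50.3 TPM and ATP5MC3 with 35.9 and 31.0 TPM. The ratio of ATP5MC2 to ATP5MC1 was 2.36 and 2.35, that of ATP5MC3 to ATP5MC1 0.673 and 0.616, and that of ATP5MC3 to ATP5MC2 0.285 and 0.262. ATP5MC2 was called above ATP5MC3 on both other scales as well, with mean ratios of ATP5MC3 to ATP5MC2 of 0.465 in CPM and 0.165 with principal transcript length. With principal transcript length ATP5MC2 and ATP5MC1 were no longer called apart (mean log2 ratio 0.18), and in CPM, without length, ATP5MC3 was above ATP5MC1 (0.74).

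Exons shared with other genes were common among the nuclear members. At least 20% of the exon bases lay in another gene's row for 19 of 99 nuclear members (19.2%), beside 10.8% of all protein-coding genes, and for 1 of 13 mitochondrially encoded members, MT-ATP8. Reads in such bases were not counted by default. The nuclear members above this limit had a median of 24.1 TPM in replicate 1 and 25.6 TPM in replicate 2, and the others 65.4 and 58.5 TPM. All protein-coding genes differed in the same direction, with 0.457 and 0.426 TPM above the limit and 3.01 and 2.71 TPM below it. Among detected nuclear members the medians were 45.5 and 38.6 TPM above the limit, and 67.4 and 62.5 TPM below it. The largest shares among detected genes were 61.6% in ATP5ME, with MYL5 on the opposite strand, 59.95% in NDUFB8, 45.2% in NDUFB6, 44.7% in NDUFA13 and 44.6% in NDUFA1. Levels above this limit ran from 0.709 TPM (NDUFA13) to 852 TPM (COX8A, 34.5% shared) among detected nuclear members. The others above the limit were NDUFAF3, NDUFB5, NDUFB2, NDUFS3, NDUFV2, NDUFS7, NDUFB11, NDUFA7, COX6B2, ATP5F1E, ATP5PF and the readthrough genes NDUFC2-KCTD14 and ATP5MF-PTCD1. In 7 of the members above the limit, COX8A, NDUFB5, NDUFB6, NDUFB8, NDUFV2, NDUFA13 and COX6B2, a partner of the shared bases had no counted read in either library.

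Copies of members elsewhere in the genome also took reads. Rows of nuclear copies of mitochondrial genes, 389 in all, held 2317 reads in replicate 1 and 2436 in replicate 2, or 0.739% and 0.736% of the reads on mitochondrially encoded members. Of these, MTCO3P12 on chromosome 1 had 1438 and 1490. Pseudogenes of nuclear members, 192 rows, held 6151 and 5438 reads, or 1.22% and 1.21% of the reads on those members. These shares are pooled over members, and the copies of SDHA given with complex II took a larger part relative to their gene. Reads that matched a gene and its copy equally were not counted by default, so these counts do not give the full loss.

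The libraries themselves differed, and on TMM-scaled counts all mitochondrially encoded members that were called were higher in replicate 2, which did not hold on the TPM scale. With an exact two-sided binomial test on TMM-scaled counts and Benjamini-Hochberg adjustment over 14668 genes, 39.5% of all genes tested were called between replicate 2 and replicate 1, 18.9% higher and 20.6% lower in replicate 2. This test sets libraries against counting error alone and does not compare conditions. Of the 13 mitochondrially encoded members 11 were called, all higher in replicate 2, and the median log2 difference was 0.15, beside 0.02 for nuclear members. MT-ND6 (log2 -0.02, exact test, adjusted p = 0.765) and MT-ATP8 (log2 -0.01, adjusted p = 0.956) were not called. Of 90 nuclear members tested 36 were called, 25 higher and 11 lower, a share near that of all genes.

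Differences of nuclear members were mostly small. The middle 90% of them ran from -0.16 to 0.19 on the log2 scale, against -0.39 to 0.49 for all genes tested. The genes tested were lower in level, with a median of 7.38 TPM against 53.9 TPM for nuclear members. Among protein-coding genes, the 95th percentile of absolute log2 differences was 0.36 from 10 to 100 CPM and 0.27 above 100 CPM. A difference of at least 25% (replicate 2 over replicate 1, or the reverse) was called for 11.8% of all genes tested, 6.87% higher and 4.92% lower. It was reached by 2 of 13 mitochondrially encoded members, MT-CO1 (log2 0.33) and MT-ND4L (0.34), and by 4 of 90 nuclear ones. NDUFC2, an accessory subunit of complex I, had 1074 reads in replicate 1 and 622 in replicate 2 (log2 -0.61, exact binomial test, adjusted p = 4.2e-16). SDHD had 3489 and 2442 reads (log2 -0.34). NDUFA3 had 1111 and 1306 reads (log2 0.41), and COX7B2, from the few reads given above, had a log2 difference of 0.91 (adjusted p = 0.013).

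The mitochondrial ribosomal RNAs, in libraries depleted of ribosomal RNA, were also higher in replicate 2 on TMM-scaled counts. MT-RNR1 was higher by 0.66 and MT-RNR2 by 0.51 on the log2 scale, beside the median of 0.15 for mitochondrially encoded members. In TPM, MT-RNR1 had 322 in replicate 1 and 449 in replicate 2, and MT-RNR2 had 1047 and 1321. The whole mitochondrial chromosome, these RNAs included, took 1.09% of reads in replicate 2 and 0.899% in replicate 1. The part of the ribosomal RNAs and of their depletion in the difference was not tested. The TPM scale uses another total, in which 1 gene weighs heavily. The highest gene tested, which is not protein-coding, had a mean of 274890 TPM, against at most 3045 TPM for protein-coding genes. On the TPM scale, 7 of 13 mitochondrially encoded members were lower in replicate 2, 5 of them among the 11 called higher on TMM-scaled counts. The median TPM of all genes tested was also lower there, at 6.96 in replicate 2 and 7.81 in replicate 1. As an example, MT-ND1 had 275 TPM in replicate 1 and 259 TPM in replicate 2, but a TMM-scaled log2 difference of 0.09. How far the highest gene tested bears on this disagreement between the scales was not tested.

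**Figure D4:**
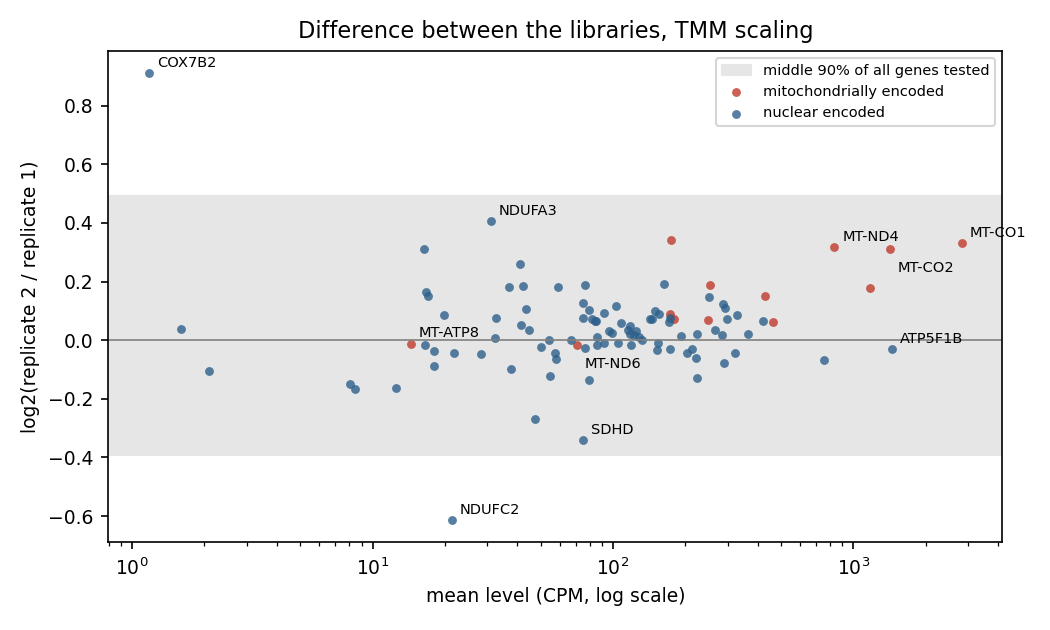
The log2 ratio of replicate 2 to replicate 1 (TMM scaling) against mean CPM (log scale) for 13 mitochondrially encoded (red) and 90 nuclear (blue) members, with the middle 90% of all 14668 genes tested in grey. Of the red points 11 lie above 0; NDUFC2 and COX7B2 lie outside the grey band.

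Other genes of the pathway were nearly all expressed. CYCS, the cytochrome c that carries electrons between complexes III and IV, had 57.2 TPM in replicate 1 and 44.4 TPM in replicate 2, below CYC1, its partner in complex III. Of 25 assembly factors of complexes II to V 24 were detected, at a median of 12.4 TPM in replicate 1 and 12.6 TPM in replicate 2. SURF1, an assembly factor of complex IV, was high among them with 68.4 and 64.2 TPM, and SDHAF3, with 2 reads and 0, was not detected. All 20 genes for maintaining, copying, transcribing or processing the mitochondrial genome were detected, at medians of 13.2 and 11.6 TPM. LRPPRC and SLIRP, partners that stabilize mitochondrial mRNAs, had 64.4 and 49.2 TPM and 61.7 and 57.6 TPM. Between the libraries 1 of these 20 was called higher and 7 lower in replicate 2, beside 18.9% higher and 20.6% lower of all genes tested. LRPPRC had a log2 difference of -0.21 and TFAM, which packages the mitochondrial genome, of -0.26 (TMM scaling).

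All 8 regulators examined were detected. ESRRA had 28.3 TPM in replicate 1 and 24.5 TPM in replicate 2, GABPA 10.7 and 8.20 TPM and NRF1 8.46 and 7.53 TPM. PPARGC1A, a coactivator of mitochondrial biogenesis, was low at 0.334 and 0.201 TPM, and its relative PPRC1 had 10.0 and 11.1 TPM. NRF1 and GABPA, a factor of the ETS family, are known to bind promoters of respiratory chain genes.

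Motif cores of both factors were searched on both strands in RefSeq promoters (build GRCh38.p14, 250 bases before to 50 after the start), which were at hand for 78 of 99 nuclear members. GCATGCG, the core of the NRF1 motif, stood in 19.2% of the members' promoters and 5.14% of 15842 protein-coding promoters. CCGGAAG, the core of the ETS motif, stood in 26.9% and 14.2%, and both in 8.97% and 1.10%. The letters of the motifs do not overlap each other, but CGCATGCG matches the NRF1 core on both strands. A match is a description of the letters and no measure of binding. The promoters of the highest members that hold both cores are shown, COX5B (chr2:97645812-97646111, plus strand) and COX6A1 (chr12:120437863-120438162, plus strand), 5′ to 3′ with matches in capitals; COX5B had 125 ± 9.62 TPM and COX6A1 106 ± 7.47 TPM (SD, n = 2).
COX5B: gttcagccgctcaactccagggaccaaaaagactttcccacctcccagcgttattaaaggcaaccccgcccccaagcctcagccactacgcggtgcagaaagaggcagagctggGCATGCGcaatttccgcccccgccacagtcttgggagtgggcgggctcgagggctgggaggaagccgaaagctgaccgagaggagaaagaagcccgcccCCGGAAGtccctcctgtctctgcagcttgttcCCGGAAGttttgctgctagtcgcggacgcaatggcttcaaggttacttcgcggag
COX6A1: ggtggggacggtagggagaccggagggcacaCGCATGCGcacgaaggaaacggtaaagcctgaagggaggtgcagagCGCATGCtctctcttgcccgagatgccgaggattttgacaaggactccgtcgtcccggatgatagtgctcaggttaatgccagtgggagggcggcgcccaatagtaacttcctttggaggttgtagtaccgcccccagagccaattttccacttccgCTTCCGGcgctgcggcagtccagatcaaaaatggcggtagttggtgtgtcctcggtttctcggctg
Among other abundant members, COX8A and COX6B1 held the ETS core without the NRF1 core, and COX7C held neither.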

How the data were processed

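Stranded total RNA libraries were made after ribosomal RNA depletion, per the labels' protocols. Per the submitters' processing notes HISAT2 and the build hg19 (GRCh37) were used. The authors ran featureCounts 2.0.2 on exons of GENCODE release 19, per the file headers, and deposited unnormalized whole-number counts, with no option for strand, multimapping or overlapping reads. A column was given to a sample where its name held that sample's cell line, residue and replicate number; the names do not hold the siRNA. The 8 other columns of per-sample values match no sample described here and were not used, so members were compared in these 2 libraries only; the other table served for gene identifiers alone.

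From the deposited counts, CPM and TPM were computed over all 57820 genes with the deposited exon lengths. Names matched 52338 identifiers (90.5%). Members, lists, pairs and tests were chosen with earlier results of these data known. Libraries were compared by the exact binomial test at TMM sizes (edgeR 4.0.16), for genes of mean CPM of at least 1; calls needed an adjusted p below 0.05. With 1 group, edgeR's quasi-likelihood test had no contrast; its common coefficient of biological variation was 0.0961. The libraries differed beyond sampling noise (chi-square of 22.8 per gene) and were kept as 2. Intervals (95%, Poisson or conditional binomial) and the floor of 3 reads cover counting error alone, because reads carry no molecular identifiers; p-values cannot separate culture from technical spread. The binomial test was run on simulated Poisson counts. These lack the spread beyond sampling noise of the 2 libraries, so that run does not bear on the calls made here.

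Genes named were the 13 mitochondrially encoded members, the 3 highest and 3 lowest nuclear members of each complex by mean TPM, the listed pairs, members called at 25% or more, members with at least 20% shared exon bases, and members not detected; ATP5IF1, SURF1 and other genes outside this rule were named after their values were seen. Protein length, hydropathy and identity, which had been planned, were not computed because no protein table was used here.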

Additional observations from a re-analysis of the deposited data

How the results depend on the processing

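No paired analysis was possible because the labels give 1 group and no contrast. The ratio of the median of mitochondrially to that of nuclear encoded members, 11.1 as reported, was 3.10 in CPM, 9.46 over detected members, 9.46 without assembly factors and readthrough genes, 11.9 without members that share 20% of their exon bases, 12.2 with means over genes and 5.98 with principal transcript length. In complex I (8.94 as reported) it was 3.51 in CPM, 7.98 over detected members and 5.41 with principal transcript length; in complex III (6.23) 3.30 in CPM and 3.90 with principal transcript length; in complex IV (44.9) 14.7 in CPM and 25.6 over detected members; in complex V (5.13) 1.20 in CPM and 2.31 with principal transcript length. It stayed above 1 in all of these settings. Leaving out each library in turn gave 10.8 to 11.4 over all members, 8.48 to 9.40 in complex I, 6.02 to 6.44 in complex III, 39.0 to 50.7 in complex IV and 4.97 to 5.29 in complex V. Direction changed in 1 pair: the log2 ratio of ATP5MC3 to ATP5MC1, -0.63 as reported, was 0.74 in CPM. Detected members numbered 100 at 5 CPM and 101 at 1 TPM. Library differences were called for 31 nuclear and 9 mitochondrially encoded members with total counts, for 33 and 11 with DESeq2 size factors, and for 34 and 11 without the filter on low counts. Depth limits the isoforms with under 10 reads, whose ratios span wide intervals, and the annotated length limits every comparison of levels between genes; 2 libraries of 1 group give no estimate of the spread between conditions. Principal transcript length was chosen after seeing the data.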
